A study of Mus musculus with 12 samples.

Results

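Kit ligand (Kitl, also called stem cell factor) and its receptor Kit are 2 of the 29454 genes in the deposited expression table of mouse hippocampus, taken as the rows that carry these symbols. The pair was chosen by the FPKM of Kitl, which were higher with a transgenic driver in these same data, so the values of Kitl in the driver comparisons are given as a description without a test. The values of Kit did not enter that choice.

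Kitl is a growth factor made as a membrane protein. It can act on a neighbouring cell while anchored, or be cut from the surface and act in soluble form. Kit is a receptor tyrosine kinase of type III, the class with an extracellular part of immunoglobulin-like domains and a split kinase, which also holds the receptors for CSF1, FLT3 ligand and the platelet-derived growth factors. Binding of the ligand pairs the receptors, and their phosphorylated intracellular part recruits phosphatidylinositol 3-kinase, the Ras adaptors and Src family kinases. The pair is best known for the survival of blood progenitors, mast cells, melanocytes and germ cells. In brain, neurons and endothelial cells make the ligand, and subsets of neurons, interneurons among them, carry the receptor.

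Total RNA of hippocampus was sequenced after ribosomal RNA depletion in 12 libraries, all labelled C57/BL6. The WT group (n = 3) came from littermates without a transgene, CAMK (n = 3) from pups with the CaMKIIα-tTA driver, and CX3CL1-ct (n = 6) from pups with that driver plus the Tg-CX3CL1-ct transgene, whose line had been backcrossed to C57BL/6J for 6 generations. The driver places the tetracycline transactivator under the Camk2a promoter, which is active in forebrain excitatory neurons. Pups were 4 days old by the sample labels and newborn (P0) by the series' design text. Sex, litter and the number of animals behind a library are not given in the labels, so a p-value here speaks only to how much these libraries vary, which may be technical.

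Some libraries stood apart. A rough depth of 11800000 to 16100000 fragments per library follows from the lowest values of short genes. CX3CL1-ct libraries 1, 2 and 3 were closer to each other than any other pair of that group: the median absolute deviation of the log2 difference over 9258 protein-coding genes was 0.0867 to 0.112 among them and 0.146 to 0.270 in the other pairs. Results are therefore also given with these 3 averaged. The summed FPKM of 15 striatal markers was 410 in WT 2, 304 in WT 3 and 286 in CX3CL1-ct 5, against 87.2 to 119 in the other 9 libraries. The 12 markers of the hippocampal formation were above 0 in every library, with sums of 254 to 336 (WT), 241 to 263 (CAMK) and 185 to 316 FPKM (CX3CL1-ct), the lowest again in CX3CL1-ct 5. WT 3 and CAMK 3 held both Xist, made from an inactive X chromosome (74.1 and 65.5 FPKM), and the Y-linked Ddx3y (7.10 and 7.34 FPKM). Xist was highest in WT 2, CAMK 2 and CX3CL1-ct 5 (112.9, 106.7 and 96.3 FPKM, with Ddx3y at 1.32, 0.743 and 1.82), and at most 8.49 FPKM in the other 7 libraries.

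Both genes are spliced into forms that differ in how the proteins work, and a value per gene adds these forms up. Kitl lies on chromosome 10, 100015630 to 100100416 (mm10, plus strand), with 4 annotated coding transcripts in GENCODE M21. Exon 6 of its 10-exon transcript, 84 bases at chr10:100080857-100080940, is skipped in a shorter coding transcript. It encodes the main site at which the ligand is cut from the membrane, and it is shown because the table cannot tell the readily shed form from the form that stays anchored.
Kitl exon 6: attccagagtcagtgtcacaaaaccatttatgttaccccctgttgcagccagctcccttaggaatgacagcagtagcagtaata
Kit lies on chromosome 5, 75574916 to 75656722 (mm10, plus strand), with 2 annotated coding transcripts. They differ at the end of exon 9 by 12 bases, chr5:75639147-75639158, which add a short insert to the receptor just outside the membrane. The junction is shown with these 12 bases in capitals and then without them.
Kit with the insert: catttaaagGTAACAACAAAGagcaaatcc
Kit without the insert: catttaaagagcaaatcc
No other annotated gene overlaps the span of Kitl or Kit, on either strand.

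The start regions of the ligand and the receptor also differ in letters. The lines below give, on the plus strand and from RefSeq (GRCm38.p6), the 30 bases from 45 to 16 before a RefSeq start of each gene, which is chr10:100015776-100015805 for Kitl and chr5:75574942-75574971 for Kit. These RefSeq starts lie 191 bases (Kitl) and 71 bases (Kit) inside the GENCODE spans given above, so both stretches fall within those spans and start sites differ between the annotations.
Kitl start region: GGGCGGGCGGgagggagctgTATAAAaagc
Kit start region: ggctgtcgcgcgccgctagtggctctgggg
Capitals mark the TATA box (TATAAA) and the GC box (GGGCGG), searched on both strands. At Kitl the TATA box begins 25 bases before the start, and a pair of overlapping GC boxes begin 45 and 41 bases before it. In the 250 bases before the start, Kitl held 3 GC boxes and 1 TATA box, and Kit held 1 GC box, 98 bases before the start, and no TATA box. Over the 27025 genes with such a sequence, 13.0 percent had a TATA box match and 32.9 percent a GC box match. The other motifs searched, the CCAAT box (CCAAT), the E-box (CANNTG) and a GATA site (AGATAA), which 34.5, 66.0 and 10.3 percent of these genes hold, were not found in these letters at either gene.

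Kitl stood at 14.0, 13.4 and 15.3 FPKM in WT 1, 2 and 3. It stood at 26.4, 40.9 and 37.8 FPKM in CAMK 1, 2 and 3. In CX3CL1-ct 1 to 6 it stood at 24.9, 28.6, 28.6, 30.0, 19.0 and 21.8 FPKM. An FPKM scales fragments by transcript length and by library size, so levels can be compared between genes. All 9 libraries with the driver lay above all 3 WT libraries, and CAMK varied more than WT. The group means were 14.2 ± 0.971 FPKM (SD, n = 3) in WT, 25.5 ± 4.34 (n = 6) in CX3CL1-ct and 35.0 ± 7.63 (n = 3) in CAMK.

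Mean Kitl in CAMK was thus 2.46 times that of WT, and in CX3CL1-ct 1.79 times. On the log2(FPKM + 1) scale, used for all differences here, the difference was 1.22 (SE 0.18) between CAMK and WT and 0.78 (SE 0.16) between CX3CL1-ct and WT. These values include the ones that led to the choice of Kitl, and the comparisons share the WT libraries. Groups that did not overlap with the first higher were seen in 9.22 percent of the 16503 genes tested for CAMK against WT and in 4.67 percent for CX3CL1-ct against WT. In bulk tissue, more cells with a transcript and more transcript per cell cannot be told apart.

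**Figure D1:**
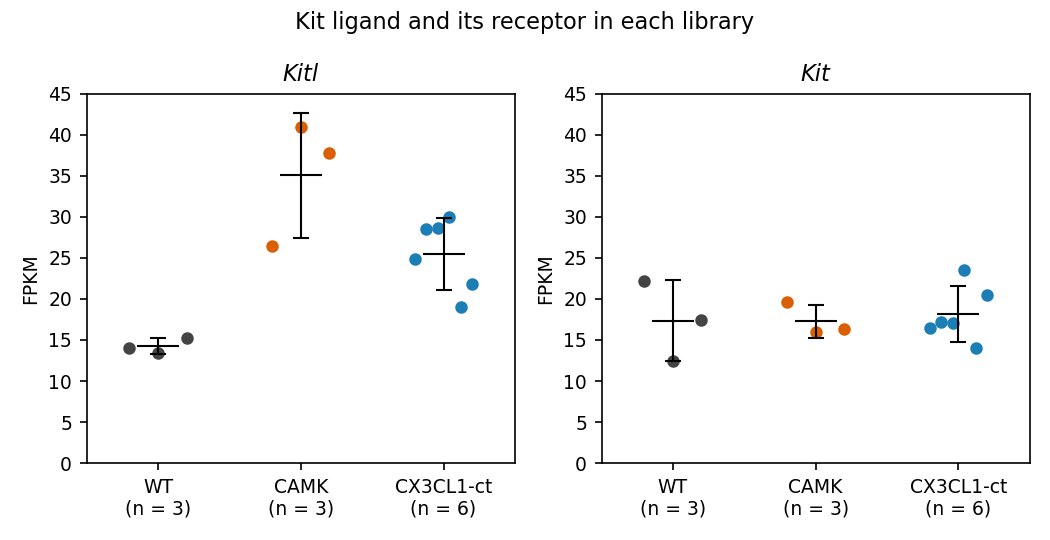
Kitl (left) and Kit (right) in FPKM (y axis), 1 point per library, by group (x axis), with a bar at the mean and whiskers of 1 SD. Kitl is above every WT library in all 9 libraries with the driver, and the groups overlap for Kit.

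CX3CL1-ct and CAMK differ by the CX3CL1 transgene. The log2 difference of Kitl between them was -0.44 (SE 0.16), given as a description with no test, because the CAMK values were part of what led to the choice of Kitl. Libraries CX3CL1-ct 1, 5 and 6 were below all CAMK libraries, while 2, 3 and 4 lay between CAMK 1 and CAMK 3. The order of the levels was WT, CX3CL1-ct, CAMK, and the last pair of groups overlapped.

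Kit stood at 22.2, 12.4 and 17.4 FPKM in WT 1, 2 and 3 and at 19.6, 15.9 and 16.3 FPKM in CAMK 1, 2 and 3. In CX3CL1-ct 1 to 6 it stood at 16.4, 17.2, 17.1, 23.6, 14.0 and 20.5 FPKM. The 3 groups overlapped, WT alone spanned most of the range, and the means were 17.3 ± 4.90 FPKM (SD, n = 3) in WT, 17.3 ± 2.00 (n = 3) in CAMK and 18.1 ± 3.37 (n = 6) in CX3CL1-ct. No order of the groups can be read from means that differ by less than their spread.

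Kit did not pass the test in any comparison. The log2 difference was 0.02 between CAMK and WT (95 percent interval -0.41 to 0.46, limma adjusted p = 0.978), and the exact two-sided permutation p was 1, where 3 against 3 libraries cannot give less than 0.1. It was 0.05 between CX3CL1-ct and CAMK (interval -0.32 to 0.43, limma adjusted p = 0.979, exact two-sided permutation p = 0.714). It was 0.08 between CX3CL1-ct and WT (interval -0.30 to 0.46, limma adjusted p = 0.889, exact two-sided permutation p = 0.726). These intervals leave room for changes of more than 0.4 in some direction, so they do not show that Kit was equal. The share of all genes that passed was 0.358, 0.0606 and 0.454 percent in the 3 comparisons, in the same order.

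The sign of the Kit differences rested on single libraries. Without WT 2, which had the lowest Kit, the value was -0.18 for CAMK against WT and -0.13 for CX3CL1-ct against WT (limma adjusted p = 0.836 and 0.892). With WT 2, WT 3 and CX3CL1-ct 5 left out together, which are the libraries rich in striatal markers, these values were -0.35 and -0.23 (adjusted p = 0.497 and 0.697). The same omission left Kitl at 1.24 for CAMK against WT. The sum of 16 markers of hippocampal excitatory neurons was lowest in CX3CL1-ct 5 (241) and WT 2 (371), the 2 libraries with the lowest Kit, and highest in WT 1 (624) and CX3CL1-ct 4 (580), the 2 with the highest Kit. Within each group the lowest Kit was also in the library with the most Xist (WT 2, CAMK 2 and CX3CL1-ct 5). The part of that list, or of sex, in the level of Kit was not tested. Without WT 3, which held both kinds of sex-linked transcript, Kit was at 0.05 and without CAMK 3 at 0.06 for CAMK against WT.

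The balance of ligand to receptor differed by library. The ratio of Kitl to Kit in FPKM was 0.632, 1.08 and 0.877 in WT 1, 2 and 3 and 1.35, 2.57 and 2.31 in CAMK 1, 2 and 3. In CX3CL1-ct it ranged from 1.06 to 1.68, with a median of 1.44. The receptor exceeded the ligand in WT 1 and WT 3 only, and CX3CL1-ct 6 (1.06) lay just below WT 2 (1.08). This ratio contains Kitl and is a description as well.

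**Figure D2:**
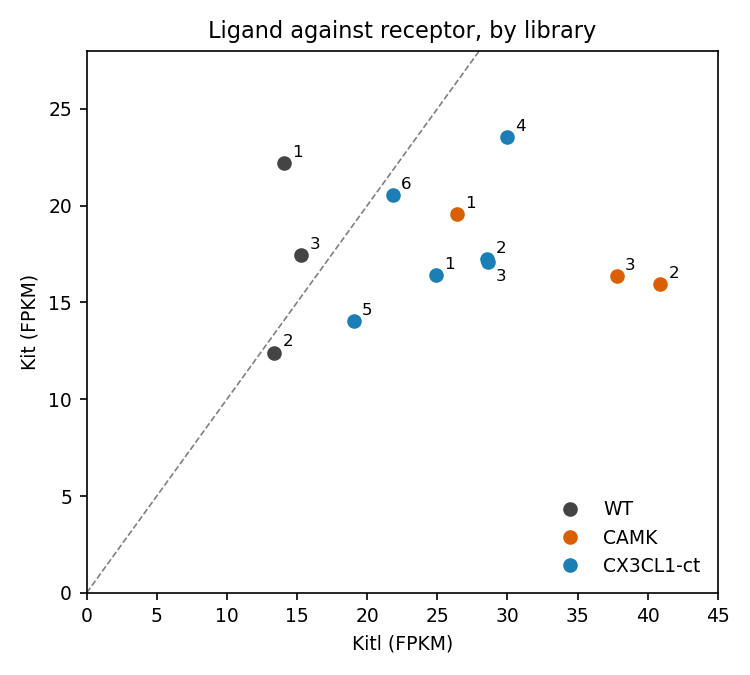
Kit (y axis, FPKM) against Kitl (x axis, FPKM) in each library, coloured by group and numbered by replicate; the dashed line marks equal FPKM. WT 1 and WT 3 lie above the line, and all CAMK and CX3CL1-ct libraries lie below it, out to 40.9 FPKM of Kitl in CAMK 2.

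Among the related receptors, no other type III kinase passed the test. Pdgfra, the receptor of platelet-derived growth factor A that marks oligodendrocyte precursors and the closest coding neighbour of Kit on the side before it in the table, 376701 bases away, ranged from 18.8 FPKM (WT 2) to 24.4 FPKM (CX3CL1-ct 5), and its groups overlapped. Pdgfrb, a receptor of pericytes, stood at 5.14 ± 0.577, 5.17 ± 0.543 and 5.72 ± 0.653 FPKM for WT, CAMK and CX3CL1-ct. Csf1r, the receptor on which microglia depend, stood at 7.88 ± 0.338, 6.79 ± 0.363 and 8.17 ± 1.27 FPKM. Flt3, a receptor of blood progenitors, stayed at 0.233 to 0.705 FPKM and was too low to be tested. None of the 3 tested passed, and the smallest unadjusted p was 0.0503 (Csf1r, CX3CL1-ct against CAMK, limma adjusted p = 0.775).

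The other ligands of these receptors did not pass either. Pdgfa was the most abundant, at 17.8 ± 2.22 FPKM for WT, 19.0 ± 1.19 for CAMK and 17.8 ± 1.84 for CX3CL1-ct, followed by Pdgfb at 8.61 ± 2.01, 8.15 ± 0.504 and 8.50 ± 1.19. Csf1 and Il34, the ligands of Csf1r, stood at 2.66 ± 0.498, 2.73 ± 0.141 and 3.19 ± 0.519 FPKM and at 2.44 ± 0.928, 2.70 ± 0.560 and 2.93 ± 0.852 FPKM. Pdgfc, which binds Pdgfra, stood at 1.94 ± 0.315 FPKM for WT, 2.21 ± 0.163 for CAMK and 2.67 ± 0.411 for CX3CL1-ct. Its log2 difference of 0.32 between CX3CL1-ct and WT (SE 0.11) was the largest of the 7 ligands in any comparison, with a limma adjusted p of 0.274. Pdgfd, which binds Pdgfrb, stood at 1.52 ± 0.268, 1.18 ± 0.163 and 1.56 ± 0.191 FPKM, and Flt3l, the ligand of Flt3, at 0.967 ± 0.400, 0.888 ± 0.141 and 0.925 ± 0.0641. In WT, Kitl was below Pdgfa in every library, and in CAMK it was above Pdgfa in every library.

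**Figure D3:**
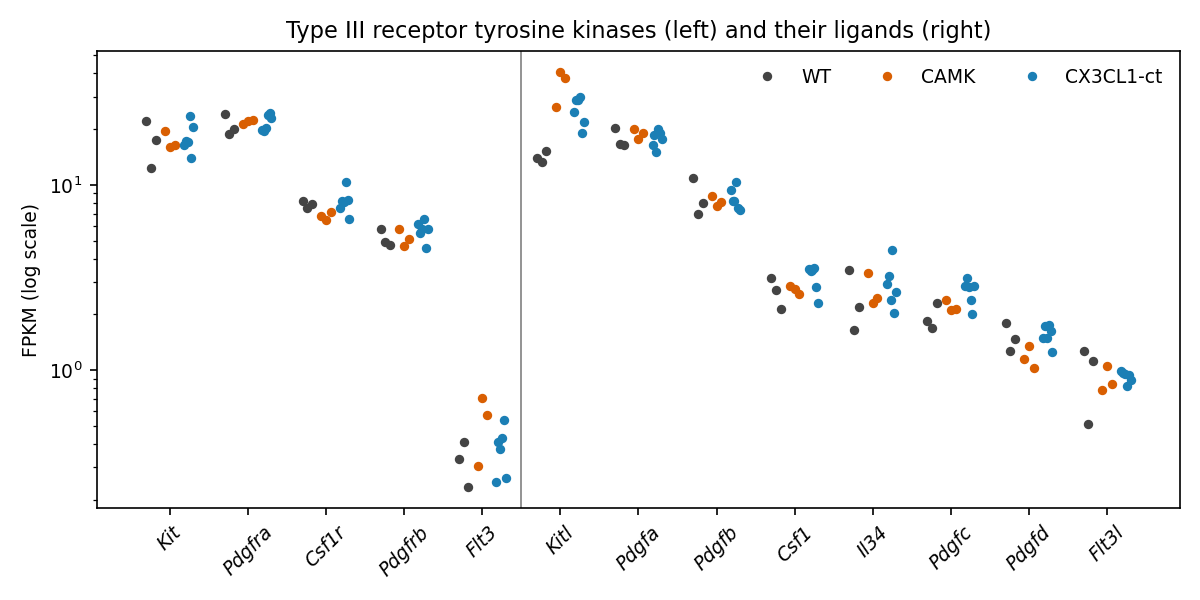
FPKM (y axis, log scale) of the 5 type III receptor tyrosine kinases (left of the line) and their 8 ligands (right) in each library, coloured by group. Kitl is the ligand whose WT libraries (13.4 to 15.3) lie apart from the CAMK libraries (26.4 to 40.9), while the groups of Kit overlap.

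Genes that carry the signal from Kit, cut its ligand or control its transcription were pooled with the other type III receptors and their ligands. These lists held 86 genes, of which 76 could be tested. None passed in any comparison. The median log2 difference of these 76 was 0.01 for CAMK against WT (0.00 over all genes tested), 0.07 for CX3CL1-ct against CAMK (0.04 over all) and 0.06 for CX3CL1-ct against WT (0.04 over all). Without adjustment, 13, 9 and 14 of them had a limma p under 0.05, which is 17.1, 11.8 and 18.4 percent, against 12.4, 6.37 and 12.3 percent of all genes tested.

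Of the 52 tested genes of Kit signalling, 31 were higher and 21 lower in CAMK than in WT. Gab2, the docking protein that links the receptor to phosphatidylinositol 3-kinase, stood at 9.36 ± 0.0817 FPKM for WT, 10.9 ± 0.724 for CAMK and 11.0 ± 0.277 for CX3CL1-ct, with every library with the driver above all WT libraries. This separation was seen in 9.22 and 4.67 percent of all genes tested. Its limma adjusted p was 0.190 for CAMK against WT and 0.109 for CX3CL1-ct against WT. Prkca, a protein kinase C that can dampen Kit signalling, stood at 20.8 ± 1.06, 17.1 ± 0.795 and 19.1 ± 0.934 FPKM, with a log2 difference of -0.27 between CAMK and WT (limma adjusted p = 0.110). All CAMK libraries were below all WT libraries for Prkca, as for 8.8 percent of all genes tested.

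Deviations of same-numbered CAMK and WT libraries from their group means correlated weakly over genes, by at most 0.236. This met the rule set for pairs, so the replicate number was also used as a block. CX3CL1-ct 1 to 3 were in the same blocked fit, although their numbers did not pair with either group. The fit was thus not a paired test of CAMK and WT alone. With this block, Prkca (limma adjusted p = 0.0367) and Pik3r1, the regulatory subunit of phosphatidylinositol 3-kinase that binds phosphorylated Kit (log2 difference 0.33, adjusted p = 0.0381), passed for CAMK against WT, as did 506 of all genes against 59 without it. Pik3r1 stood at 37.4 ± 1.25 FPKM for WT, 47.2 ± 2.71 for CAMK and 44.9 ± 4.66 for CX3CL1-ct. Without the block its adjusted p was 0.184.

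Of the proteases that can release the ligand, Adam10 stood at 16.6 ± 0.683 FPKM for WT, 16.9 ± 1.25 for CAMK and 18.5 ± 0.991 for CX3CL1-ct, and Adam17 at 6.37 ± 0.450, 5.83 ± 0.313 and 6.47 ± 0.484. Adam33, a further candidate sheddase, was at or near 0, with at most 0.333 FPKM in any library. Mmp2, a matrix protease, stood at 2.40 ± 0.637, 3.04 ± 0.561 and 4.19 ± 0.769 FPKM, with a log2 difference of 0.61 between CX3CL1-ct and WT and a limma adjusted p of 0.124. Mmp2 passed in that comparison without CX3CL1-ct 5 (0.70, adjusted p = 0.0275), and 1 of the 76 genes then passed, while 158 of all genes tested did.

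The transcription factors linked to Kit were lower in CAMK than in WT in 7 of 8 tested members, with a median log2 difference of -0.32. Against CAMK all 8 were higher in CX3CL1-ct, with a median of 0.15. These comparisons share the CAMK libraries. Gata2, a factor of blood progenitors and mast cells that acts on Kit, stood at 1.10, 1.35 and 1.08 FPKM in WT, at 0.316, 0.372 and 0.705 in CAMK, and at 0.584 to 0.962 in CX3CL1-ct. All libraries with the driver were below all WT libraries, as for 1.38 percent of all genes tested when CX3CL1-ct is set against WT, at levels near 1 FPKM or lower, and the limma adjusted p was 0.122 for CAMK against WT and 0.300 for CX3CL1-ct against WT. Etv1, a factor that works together with Kit in interstitial cells of the gut, stood at 8.16 ± 0.687 FPKM for WT, 6.26 ± 0.183 for CAMK and 9.63 ± 1.82 for CX3CL1-ct. CX3CL1-ct 1, 2 and 3 had 11.0 to 11.6 FPKM of Etv1 and the other 3 had 7.73 to 8.39, so its difference from CAMK (0.53, limma adjusted p = 0.697) was largest in the 3 libraries that resemble each other. All 6 were above all CAMK libraries, as for 2.78 percent of all genes tested.

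**Figure D4:**
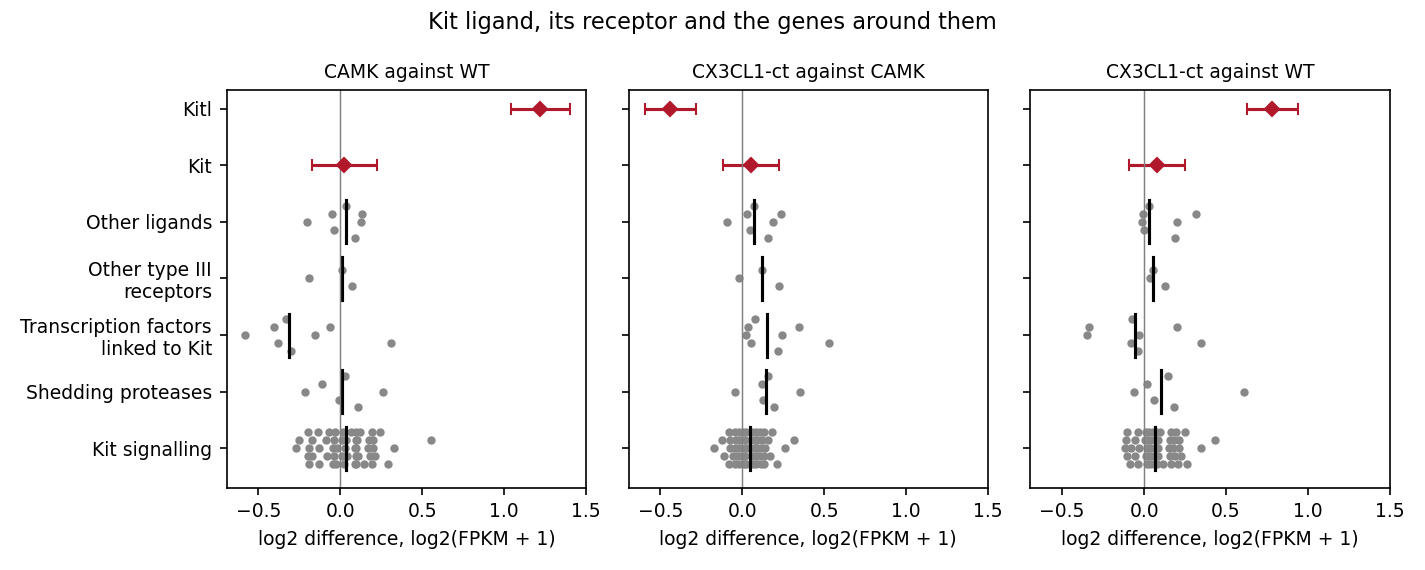
Log2 differences on the log2(FPKM + 1) scale (x axis) of Kitl and Kit (diamonds, whiskers 1 SE) and of the tested genes of 5 lists (grey points, black bars at the median; y axis) in the 3 comparisons. In CAMK against WT, Kitl stands at 1.22 and Kit at 0.02, and the median of the transcription factor list is -0.32.

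Cells that could bring either gene into the tissue were examined by marker lists. Mast cells carry Kit in abundance, and their 8 markers in the table summed to 1.60 to 4.97 FPKM per library. Cpa3, Mcpt4, Tpsb2, Tpsab1, Ms4a2 and Mrgprb1 were at 0 in at least 1 library. The highest value in any library was 0.765 FPKM for Cpa3, 1.005 for Mcpt4, 1.14 for Cma1, 1.12 for Tpsb2 and 1.78 for Hdc, and at most 0.105 for Tpsab1, Ms4a2 and Mrgprb1. Mcpt4, a mast cell protease, stood at 0.343 to 1.005 FPKM in CAMK, at most 0.0938 in WT and 0 to 0.998 in CX3CL1-ct. It was too low to be tested. Groups that did not overlap with CAMK above WT were seen in 9.22 percent of all genes tested. Cpa3, Cma1, Tpsb2, Tpsab1, Ms4a2 and Mrgprb1, also too low to be tested, likewise had higher means in CAMK than in WT. Of these, Cma1 and Tpsab1 did not overlap between CAMK and WT. Hdc, the 1 member that could be tested, alone had a lower mean in CAMK than in WT. It stood at 1.57 ± 0.237 FPKM for WT and 1.08 ± 0.371 for CAMK (limma adjusted p = 0.520). The list sums, in which Hdc had the highest mean of the members, overlapped, at 1.61 to 2.57 FPKM in WT and 2.39 to 3.11 in CAMK. Melanocytes are another Kit cell, and Mlana, Dct, Tyr, Tyrp1, Slc45a2 and Mc1r were at 0 in at least 1 library, with at most 0.481 FPKM in any. Pmel and Oca2 reached 0.659 and 0.896 FPKM, and Sox10, which oligodendrocyte precursors also express, stood at 5.22 to 7.71. The part of either cell type in the level of Kit was not tested. Of 18 markers of GABAergic interneurons, which carry Kit in part, 17 were lower in CAMK than in WT. The sums were 359 to 372 against 400 to 479 FPKM with no overlap, though none of the 18 passed limma's test. In CX3CL1-ct the sums were 308 to 470 FPKM and overlapped both groups. The highest sums were in WT 2 (479), CX3CL1-ct 5 (470) and WT 3 (437), the libraries rich in striatal markers. The part of striatal tissue in these sums was not tested. Kit overlapped between CAMK and WT.

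Markers of the meninges and fibroblasts, like Kitl, had summed levels above all WT libraries in all 9 libraries with the driver. They were higher in CAMK than in WT for 13 of 14 members, with sums of 98.9 to 110 against 58.2 to 89.3 FPKM, and higher in CX3CL1-ct than in WT for 14 of 14, with sums of 103 to 219 FPKM. Of the 14, none passed limma's test for CAMK against WT (0.358 percent of all genes did) and 5 passed for CX3CL1-ct against WT (0.454 percent of all genes did). None was at 0 in any library. In CAMK 1, 2 and 3 the sums were 110, 98.9 and 109 FPKM, highest where Kitl was lowest. CX3CL1-ct 4 had the highest sum (219) with 30.0 FPKM of Kitl, and CAMK 2 had 98.9 with 40.9. Within CX3CL1-ct, libraries 5 and 6 had the lowest Kitl and the lowest sums (103 and 104). The part of these cells in the level of Kitl was not tested.

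Lists of other brain regions and of vessels were also summed. Neocortex markers summed to 474 to 736 FPKM in CAMK against 388 to 400 in WT, with no overlap, but to 364 to 826 in CX3CL1-ct. Of the 16 members 12 were higher and 4 lower in CAMK. Mef2c, a factor of cortical neurons, made up most of the difference in the mean sum, at 60.2 ± 14.9 FPKM for WT and 208 ± 59.5 for CAMK (limma adjusted p = 0.135). Bcl11b, a factor of deep-layer and striatal neurons, was the 1 member that passed, and it fell from 48.9 ± 10.3 to 27.6 ± 3.66 FPKM (limma adjusted p = 0.0397). Of all genes tested, 0.358 percent passed for CAMK against WT. The highest sum was in CX3CL1-ct 6, whose Kitl was among the lowest with the driver, and the lowest was in CX3CL1-ct 5. Thalamus markers ran with Kitl within CAMK, at 149, 227 and 198 FPKM in CAMK 1, 2 and 3. Over all libraries they were highest in CX3CL1-ct 5 (232), CAMK 2 (227) and CAMK 3 (198), which have the lowest Kitl of the 9 libraries with the driver in the first case and the highest in the CAMK pair. Endothelial and pericyte markers, from cells that make the ligand, were higher in CAMK for 11 of 15 members, with overlapping sums of 144 to 170 against 124 to 156 FPKM. The part of these lists was not tested either.

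**Figure D5:**
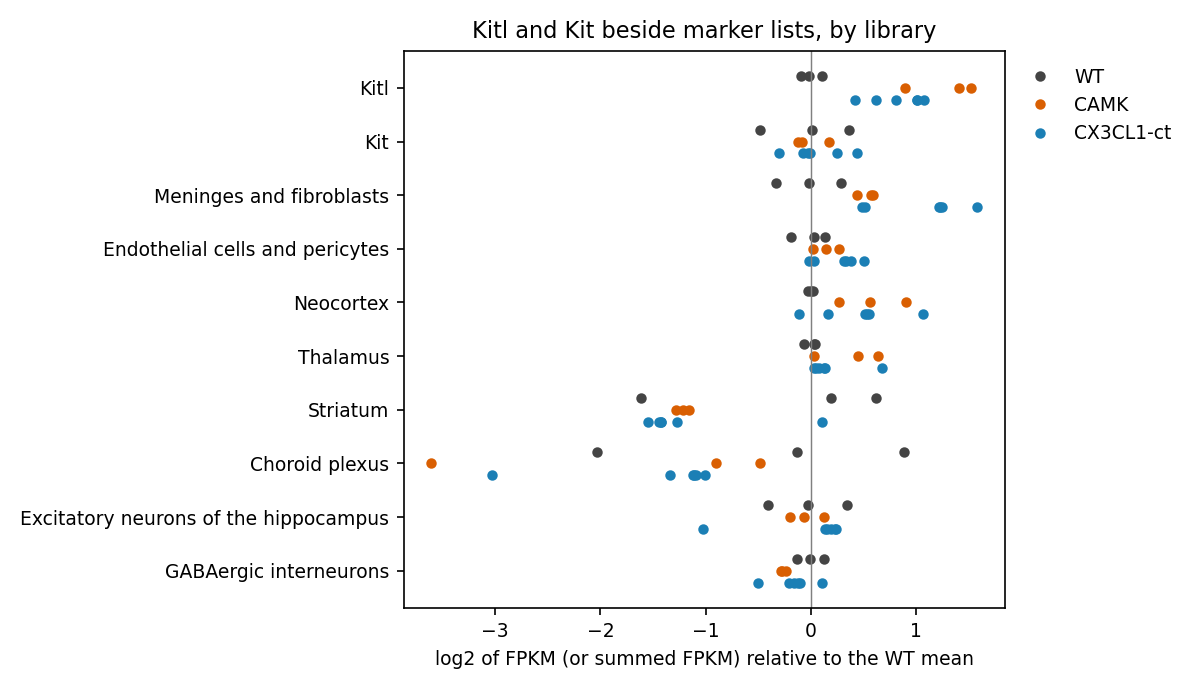
Log2 of the level relative to the WT mean (x axis) for Kitl, Kit and the summed FPKM of 8 marker lists (y axis) in each library, coloured by group. Kitl and the meninges list lie to the right of all WT libraries in all 9 libraries with the driver, and the striatum list is high in WT 2, WT 3 and CX3CL1-ct 5.

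The genes next to Kitl were examined on either side. Upstream, Csl, a citrate synthase-like gene 255972 bases before Kitl, stayed at or below 0.276 FPKM, and the pseudogene Gad1-ps stood at 0.551 to 2.07 FPKM. Downstream, Tmtc3, an enzyme of the endoplasmic reticulum 343486 bases after Kitl, stood at 7.25 ± 0.934 FPKM for WT, 6.14 ± 1.20 for CAMK and 6.29 ± 1.12 for CX3CL1-ct, and Cep290, a protein of the ciliary transition zone, at 3.52 ± 0.513, 3.09 ± 0.453 and 3.20 ± 0.742. The tested neighbours did not pass in any comparison. Besides Pdgfra, the nearest genes of Kit in the table were the pseudogene Gm18345 before it and the noncoding genes Gm43101 and Gm43102 after it. These 3 were at or near 0 in every library, with at most 0.162 FPKM.

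Genes whose pattern over the 12 libraries was most like that of Kitl were sought among 11412 genes, with Pearson's r of log2(FPKM + 1) as the measure of likeness. Highest were Dse, an enzyme of dermatan sulfate synthesis (r = 0.895), and Rgs7, a regulator of G protein signalling in neurons (0.883). Next came Vangl1, a planar polarity protein (0.878), Esyt1, a tether of the endoplasmic reticulum (0.870), and Htr5a, a serotonin receptor (0.867). Much of this likeness is the step between the groups: with group means removed r was 0.760 for Dse and 0.801 for Esyt1, but 0.358 for Rgs7, 0.402 for Vangl1 and 0.519 for Htr5a. Dse stood at 3.12 to 3.68 FPKM for WT, 4.40 to 5.21 for CAMK and 3.91 to 5.60 for CX3CL1-ct. Its CAMK and CX3CL1-ct libraries were above all WT libraries, as were those of Rgs7, Vangl1 and Htr5a. Such a step follows from picking genes by their likeness to Kitl. It was seen in 9.22 percent of all genes tested for CAMK and 4.67 percent for CX3CL1-ct.

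For Kit the most alike were Ephb3, an ephrin receptor (r = 0.952), Asic2, an acid-sensing channel (0.941), Txnip, which binds thioredoxin (0.933), Fbxw9 (0.931) and Sprn, a relative of the prion protein (0.929). Here the likeness was within the groups: with group means removed r was 0.966, 0.949, 0.948, 0.938 and 0.947. Like Kit, Ephb3 was lowest in WT 2 (3.31 FPKM) and next lowest in CX3CL1-ct 5 (3.67). Ephb3 was highest in WT 1 (5.17), whereas Kit was highest in CX3CL1-ct 4 (23.6 FPKM, with 22.2 in WT 1). All 10 genes were picked as the closest of many, so these values of r, over libraries that share a group or a tissue makeup, are descriptions.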

How the data were processed

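The authors deposited a table of FPKM values, 1 column per library for 12 libraries. TopHat, Bowtie, Cufflinks, Cuffdiff and build mm10 are named in the submitters' processing notes; versions, roles and the scaling between libraries are not given in the sources used here. Per the labels' protocols, libraries were stranded, with 100 cycles read from each end, from at least 100 ng of RNA of integrity 7.0 or more. FPKM were used as deposited and tested as log2(FPKM + 1), which understates changes of low genes. The 16503 genes that reached 1 FPKM in 3 or more libraries were kept. limma 3.58.1 (R 4.3.3) fitted the means of the 3 groups in 1 model (eBayes with trend). Benjamini-Hochberg adjustment ran over every gene kept, and 0.05 was the threshold. Kit was also compared by exact two-sided permutation. The test planned for Kitl in CX3CL1-ct against CAMK is not reported, because the CAMK values entered its choice.

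Counts were not used here. The depth is a rough estimate from genes with 1 exon and 1 transcript of 500 to 5000 bases, assuming fragments of 180 bases. It puts Kitl at 158 to 522 and Kit at 146 to 320 fragments per kilobase of transcript. Counting error was not compared with the spread between libraries.

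Deviations of same-numbered CAMK and WT libraries from their group means correlated over genes by 0.236, 0.163 and 0.100 (0.100266, only just over 0.1), which met the rule for pairs, while the numbers of CX3CL1-ct did not pair with either group (-0.130 to 0.114). The members and gene lists were chosen with earlier results of these data known. The genes named are Kit, Kitl, the type III receptors and their ligands, the 4 listed pathway genes with the smallest p (none passed), the nearest neighbours and the 5 genes most like each member. Pik3r1, Mmp2, Adam10, Adam17, Adam33, Fyn, Mapk3 and the marker genes were named after their values were seen. A symbol on 2 rows was kept for the row whose gene ID carries it in GENCODE M21. The limma fit was tested on simulated data with known differences. Alternatives were another pseudocount, no filter, other scalings, smaller sets of libraries and a replicate block. Figures were drawn with matplotlib 3.10.9 in Python 3.11.15.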

Additional observations from a re-analysis of the deposited data

How the results depend on the processing

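The difference of Kitl kept its direction under every alternative run. This is a description, because Kitl was chosen by these values. Every library with the driver lay above every WT library, so leaving out libraries could not reverse the differences from WT. For CAMK against WT it ranged from 1.10 to 1.41 when single libraries were left out. The Kit differences are near 0 and changed sign in several settings without passing the test in any. For CAMK against WT, Kit was at -0.000645 with FPKM rescaled without small RNA genes, and from -0.18 to 0.21 with single libraries left out; it was at -0.35 without WT 2, WT 3 and CX3CL1-ct 5, an omission chosen after seeing the data. For CX3CL1-ct against CAMK, Kit was at -0.025 with the replicate number as a block and from -0.022 to 0.14 with single libraries left out. For CX3CL1-ct against WT it was at -0.00025 with that block, from -0.13 to 0.27 with single libraries left out and at -0.23 without those 3 libraries. With the block, 2 pathway genes passed for CAMK against WT (506 of all genes did), 1 for CX3CL1-ct against CAMK (Etv1; 191 of all genes) and 4 for CX3CL1-ct against WT (Fyn, Mapk3, Etv1 and Mmp2; 568 of all genes), against 0 without it. CX3CL1-ct 4, 5 and 6 have no partner, so the blocked differences of CX3CL1-ct rest on libraries 1 to 3, which resemble each other, and the effects of pairing and of fewer libraries cannot be told apart. By number, CX3CL1-ct 1 to 3 did not pair with either group. They shared the blocked fit with CAMK and WT, so its calls for CAMK against WT also depend on them. The Xist of CX3CL1-ct 1 to 3 was at most 0.908 FPKM, against 65.5 to 113 in the WT and CAMK libraries numbered 2 and 3. The block changed no call of Kit. Leaving out single libraries gave 0 to 1 passing genes for CX3CL1-ct against WT (Mmp2, without CX3CL1-ct 5, when 158 of all genes passed) and 0 otherwise. The cause was not tested. With CX3CL1-ct 1 to 3 averaged, also chosen after seeing the data, no direction or call changed. FPKM without counts limit what can be said of the precision of low genes such as Flt3 and Gata2.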
